A study of Mus musculus with 2 samples.

Results

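Serum amyloid A1, A2 and A3, lipocalin-2, orosomucoid 1 and 2, haptoglobin, STAT3, the IL-6 receptor α chain and SOCS3 are encoded by Saa1, Saa2, Saa3, Lcn2, Orm1, Orm2, Hp, Stat3, Il6ra and Socs3. These 10 genes were chosen as a named list of acute-phase and IL-6 signaling genes and were matched by symbol, and all 10 were found among the 43280 gene symbols counted. Poly(A) RNA was sequenced in 1 library of mature hepatocytes (MHs) and 1 library of small hepatocytes (SHs), both from C57BL6 mice labelled as 20 weeks old. The same healthy mice gave both kinds of cells, which were taken fresh after collagenase perfusion of the liver, and no treatment with a drug or cytokine is stated. MHs were the cells that sedimented at low speed and were freed of dead cells on a Percoll gradient, without sorting. SHs, described as intrinsic hepatocyte progenitors, came from the supernatant, passed a Percoll gradient as well and were sorted by FACS as CD31-, CD45-, EpCAM- and ICAM-1+ cells. The steps of isolation therefore differed between the groups, and a difference between the cells and a difference between the isolations cannot be told apart. The methods give a younger age for the mice of the study than the labels do. They name several mice as the source of the cells for RNA sequencing but do not say whether these cells were pooled.

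IL-6 binds the IL-6 receptor α chain and the shared signaling chain gp130 on hepatocytes, which activates JAK kinases and the transcription factor STAT3. STAT3, together with C/EBP and NF-κB factors, induces plasma proteins of the acute-phase response, among them serum amyloid A, haptoglobin and orosomucoid. SOCS3 is induced by the same signal and inhibits it, as a feedback on gp130 and the JAK kinases.

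Counted reads numbered 16979136 for MHs and 42356444 for SHs. Levels are given as RPM, the reads per 1000000 counted reads, and ratios as log2 of SHs over MHs after 0.5 reads were added to each count, with a 95% Clopper-Pearson interval. A floor of 3 reads corresponds to 0.177 RPM for MHs and 0.0708 for SHs. With 1 library per group there was no replicate check and no test, and all intervals cover counting error only, since reads after PCR, without molecular identifiers, are not independent molecules. The hepatocyte markers Alb, Hnf4a, Cps1, Tdo2, Tat, Ttr, Apoa1 and Serpina1a had reads in both libraries and a median log2 ratio of 0.03, from -0.19 to 0.27. The 10 endothelial markers summed to 109 RPM in MHs against 5.34 in SHs, the 10 macrophage markers to 22.4 and 1.02, and the 10 stellate cell markers to 26.4 and 2.69. In such bulk libraries, fewer cells of a type and less RNA per cell cannot be told apart.

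Within the 10 genes, the acute-phase proteins and the signaling genes lay on opposite sides. All 7 genes of acute-phase proteins were lower in SHs, and Stat3, Il6ra and Socs3 were higher. Orm1 and Hp were only slightly lower, with log2 ratios of -0.08 and -0.11, and the interval of Il6ra began at 0.02. Outside the 10 genes the split did not hold throughout, with Il6st at -0.41 and the acute-phase protein C3 at 0.25. All 10 genes had at least 10 reads when both libraries were summed. Saa1, Saa2 and Saa3 were at least 2-fold lower in SHs with an interval wholly under 0, which is 3 of 10 genes, whereas 4.46% of the 15521 genes with at least 10 reads were. The list was chosen with earlier results of these data known, so these shares are a description only. With Saa1 and Saa2 summed, and Orm1 and Orm2 summed, 2 entries were at least 2-fold lower and 1 higher. Socs3 was the 1 gene at least 2-fold higher, beside 2.00% of all genes. At 1.5-fold, Lcn2 and Orm2 joined the Saa genes, which made 5 lower genes beside 6.20% of all genes, and Socs3 stayed the 1 higher gene beside 3.50%. The interval lay wholly under 0 for 7 of the 10 genes, beside 15.5% of all genes, and wholly above 0 for 3, beside 16.8%. Most genes have too few reads for an interval that narrow, so these last shares also reflect depth. The median log2 ratio was -0.39 over the 10 genes and 0.02 over all genes with at least 10 reads.

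**Figure D1:**
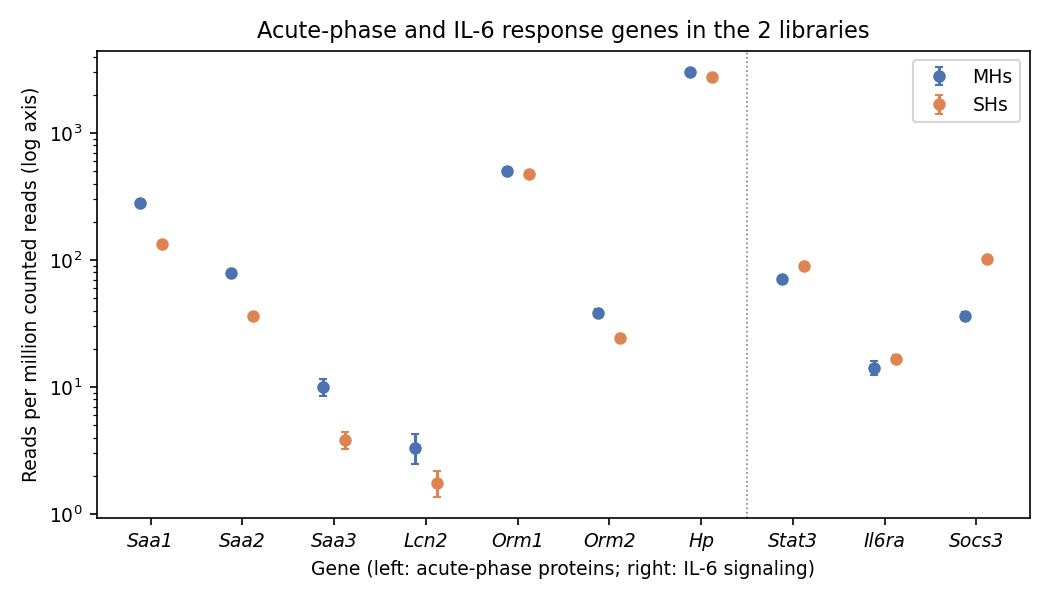
Level of each of the 10 genes in the library of MHs (blue) and of SHs (orange), in RPM on a log axis, with exact 95% Poisson intervals as bars. The 7 genes left of the dotted line lie lower in SHs, by the most for Saa3 (10.01 and 3.82 RPM), and the 3 genes on its right lie higher, by the most for Socs3 (36.3 and 101 RPM).

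The 10 genes took 0.403% of the reads in MHs (95% Clopper-Pearson interval 0.400 to 0.406%) and 0.365% in SHs (0.364 to 0.367%). Hp alone held 74.3% of the reads of the 10 genes in MHs and 75.9% in SHs. Without Hp, the other 9 genes took 0.104% and 0.0880% of all reads. The summed level of the list was therefore set by Hp, while the ratios of the single genes were spread over almost 3 log2 units, from -1.39 for Saa3 to 1.48 for Socs3.

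**Figure D2:**
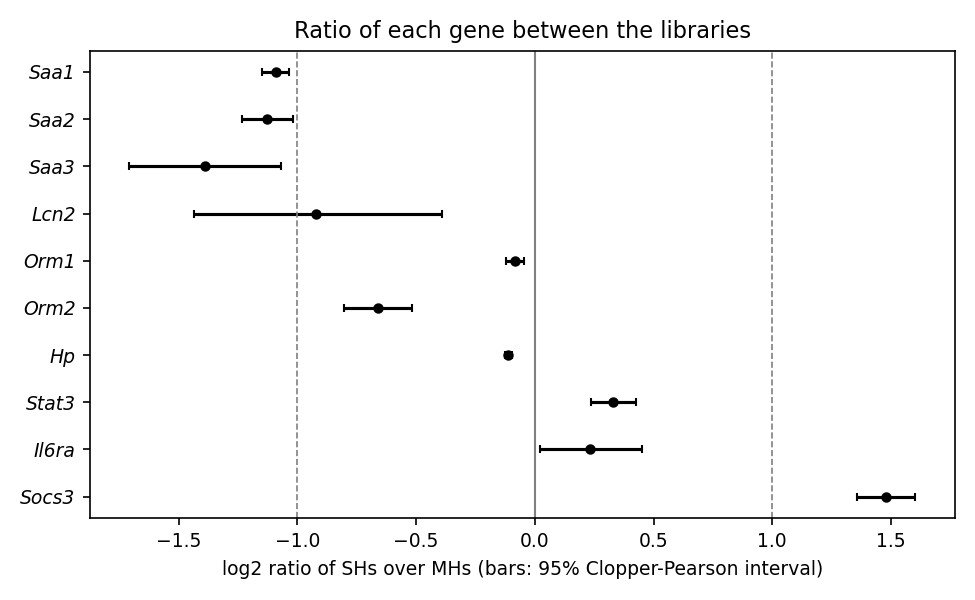
The log2 ratio of SHs over MHs for each of the 10 genes (points) with its 95% Clopper-Pearson interval (bars); dashed lines mark 2-fold. Saa1, Saa2 and Saa3 lie between -1.39 and -1.09, Orm1 and Hp between -0.11 and -0.08, and Socs3 at 1.48.

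Levels of different genes can be compared within a library only per length. Divided by the length of the coding transcript with the longest coding sequence, Hp was the highest of the 10 genes in both libraries, with 2228 RPM per kilobase (RPKM) in MHs and 2063 in SHs. Orm1 followed with 647 and 611 RPKM, Saa1 with 465 and 218, and Saa2 with 121 and 55.6. Lcn2 was the lowest in both, with 3.63 and 1.92 RPKM, next to Il6ra with 4.23 and 4.98. Socs3 was the gene whose place moved most, from the eighth to the fifth, with 14.2 RPKM in MHs and 39.7 in SHs. Stat3 had 15.8 and 19.9 RPKM, and so lay above Socs3 in MHs and under it in SHs. This order of Stat3 and Socs3 in MHs depended on the length, since the exons of all Stat3 transcripts together are much longer than its coding transcript. With the union of all annotated exons as length, Socs3 had 12.6 RPKM in MHs and Stat3 7.49.

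Saa1, Saa2 and Saa3 encode the inducible serum amyloid A proteins. Saa1 and Saa2 are made mainly by hepatocytes in the acute phase, and Saa3 is also made by macrophages and other cells. Saa4 encodes the constitutive form, which changes little in inflammation. In mm10, the 4 genes lie side by side on chromosome 7, in the order Saa3 (46711998 to 46715700, minus strand), Saa4 (46727998 to 46732603, minus), Saa1 (46740497 to 46742980, minus) and Saa2 (46751790 to 46754313, plus). Each has 4 exons in the coding transcript used here. The transcripts of Saa1 and Saa2 were identical at 94.4% of 606 aligned bases, with identical runs of up to 76 bases, so that the division of reads between them is uncertain. Saa1 and Saa3 aligned over 282 bases with 81.9% identity, and Saa1 and Saa4 over 229 bases with 71.2%.

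The promoters of the 4 Saa genes are shown because genes of this cluster lay on both sides of 0. They are 300-base windows from RefSeq (build GRCm38.p6), from 250 bases before the start to 50 bases after it, on the strand of the gene and 5′ to 3′. Capitals mark matches to the C/EBP letters TTGCNNAA on either strand.
Saa1 promoter, chr7:46742931-46743230, minus strand: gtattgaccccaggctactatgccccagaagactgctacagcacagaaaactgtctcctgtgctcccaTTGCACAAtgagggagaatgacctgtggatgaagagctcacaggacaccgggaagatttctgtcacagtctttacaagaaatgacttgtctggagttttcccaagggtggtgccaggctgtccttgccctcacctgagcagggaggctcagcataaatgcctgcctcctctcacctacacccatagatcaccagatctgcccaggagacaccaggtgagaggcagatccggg
Saa2 promoter, chr7:46751583-46751882, plus strand: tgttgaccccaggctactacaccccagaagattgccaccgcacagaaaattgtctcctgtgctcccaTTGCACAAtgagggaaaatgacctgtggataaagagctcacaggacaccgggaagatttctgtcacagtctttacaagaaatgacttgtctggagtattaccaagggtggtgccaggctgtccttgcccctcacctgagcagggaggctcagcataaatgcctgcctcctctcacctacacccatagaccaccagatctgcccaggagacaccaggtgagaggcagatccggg
Saa3 promoter, chr7:46715627-46715926, minus strand: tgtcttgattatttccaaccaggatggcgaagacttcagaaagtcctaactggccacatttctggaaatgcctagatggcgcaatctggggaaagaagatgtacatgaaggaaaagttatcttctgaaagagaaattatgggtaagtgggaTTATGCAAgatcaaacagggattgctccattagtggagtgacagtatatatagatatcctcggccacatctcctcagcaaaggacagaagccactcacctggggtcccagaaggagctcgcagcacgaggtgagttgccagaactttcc
Saa4 promoter, chr7:46732554-46732853, minus strand: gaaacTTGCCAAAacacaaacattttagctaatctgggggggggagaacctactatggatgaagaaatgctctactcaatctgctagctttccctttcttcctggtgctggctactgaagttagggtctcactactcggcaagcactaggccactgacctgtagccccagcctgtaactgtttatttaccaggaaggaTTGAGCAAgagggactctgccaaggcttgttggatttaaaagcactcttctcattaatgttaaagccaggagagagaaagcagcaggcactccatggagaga
The windows of Saa1 and Saa2 were identical at 96.3% of 297 aligned bases and share the match TTGCACAA, at -182 and -183 from the start. The window of Saa3 holds TTATGCAA at -99, which is the same motif read on the other strand. The window of Saa4 holds TTGCCAAA at -245 and TTGAGCAA at -52. The best-scoring local alignment of the Saa4 window with that of Saa1 held 24 aligned bases.

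Saa1 had 4813 reads in MHs and 5632 in SHs, which were 283 and 133 RPM. The level in SHs was lower, with a log2 ratio of -1.09 (95% interval -1.15 to -1.04), or 2.13-fold (2.05 to 2.22). By reads, Saa1 was the 445th gene of all in MHs and the 862nd in SHs. Saa2 had 1345 and 1536 reads, 79.2 RPM in MHs and 36.3 in SHs, for a log2 ratio of -1.13 (-1.23 to -1.02). The ratios of Saa1 and Saa2 were alike within counting error. Saa2 held 21.8% (20.8 to 22.9%) of the reads of both genes in MHs and 21.4% (20.5 to 22.4%) in SHs. Their sum, which does not depend on the division of reads, went from 363 RPM in MHs to 169 in SHs, for a log2 ratio of -1.10 (-1.15 to -1.05).

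Saa3 had 170 and 162 reads, the latter in the deeper library of SHs, and so 10.01 RPM in MHs and 3.82 in SHs. It had the lowest ratio of the 10 genes, -1.39 (-1.71 to -1.07), although its interval overlapped those of Saa1 and Saa2. Of the 9608 genes whose summed reads reached 200, 42 had a lower ratio than Saa3, 61 a lower one than Saa2 and 66 a lower one than Saa1. Saa4 lay on the other side of 0, with 3262 reads in MHs and 9206 in SHs, or 192 and 217 RPM, for a log2 ratio of 0.18 (0.12 to 0.24). Within the cluster, Saa4 thus took 34.0% (33.1 to 34.97%) of the reads of the 4 Saa genes in MHs and 55.7% (54.9 to 56.4%) in SHs. This shift needs no scaling between libraries. The number of Saa1 reads for each Saa4 read went from 1.48 in MHs to 0.612 in SHs, a log2 change of -1.27 (exact conditional interval -1.35 to -1.19). Of the neighbouring protein-coding genes, Saal1, which lies beside Saa3, had a log2 ratio of -0.61 (-0.996 to -0.20) from 87 and 143 reads. Hps5 and Gtf2h1, beside Saa2, had ratios of -0.16 and -0.03 with intervals that included 0.

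**Figure D3:**
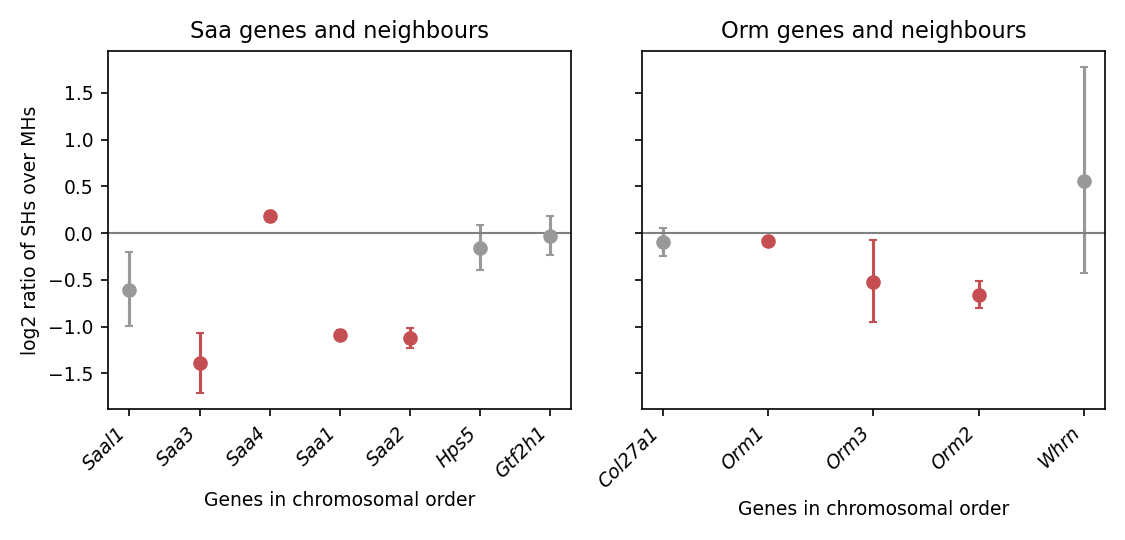
The log2 ratio of SHs over MHs, with 95% Clopper-Pearson intervals, of the Saa genes (left) and the Orm genes (right) in red and of neighbouring protein-coding genes with at least 10 reads in grey, in chromosomal order. Saa4, at 0.18, lies between Saa3 at -1.39 and Saa1 at -1.09, and Orm2 at -0.66 lies lower than Orm1 at -0.08.

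Lcn2 encodes lipocalin-2, an acute-phase protein that binds bacterial siderophores and is also stored in the granules of neutrophils. It lies on chromosome 2 (32384633 to 32388252, minus strand) and was the least expressed of the 10 genes, with 56 reads in MHs and 74 in SHs, or 3.30 and 1.75 RPM. The level was lower in SHs, with a log2 ratio of -0.92, but the interval was wide (-1.44 to -0.39) and included 2-fold. Lcn2 per read of Saa3 did not differ beyond counting error, at 0.329 and 0.457 reads, with an interval of the log2 change from -0.15 to 1.09.

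Saa3 and Lcn2 are both expressed by blood and immune cells as well as by hepatocytes, and markers of such cells were examined beside them. Of 11 neutrophil markers, S100a8, Ngp, Camp, Mpo, Retnlg and Ly6g had 0 reads in both libraries, and the 11 together had 6 reads in MHs against 5 in SHs. The 10 macrophage markers together had 380 reads in MHs against 43 in SHs. Of the 9 with 10 reads or more, 8 lay at least 2-fold lower, with Cd68 as the exception, beside 4.46% of all genes. The part of such cells in the lower Saa3 and Lcn2 levels of SHs was not tested.

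Orm1, Orm3 and Orm2 encode orosomucoids, abundant plasma glycoproteins that bind drugs and lipids. They lie in this order on the plus strand of chromosome 4, Orm1 at 63344560 to 63348163 and Orm2 at 63362449 to 63365878 of mm10. The transcripts of Orm1 and Orm2 were identical at 91.0% of 775 aligned bases, with 1 identical run of 141 bases, so that part of the reads cannot be assigned with certainty. Orm1 had 8514 reads in MHs and 20053 in SHs, or 501 and 473 RPM, for a log2 ratio of -0.08 (-0.12 to -0.05). Orm1 was thus almost as high in SHs as in MHs. Orm2 had 652 and 1029 reads, 38.4 and 24.3 RPM, for a log2 ratio of -0.66 (-0.80 to -0.52). The 2 intervals did not overlap. Orm2 held 7.11% (6.60 to 7.66%) of the reads of Orm1 and Orm2 in MHs and 4.88% (4.59 to 5.18%) in SHs. Orm3, with 4.18 and 2.93 RPM, had a ratio of -0.52 (-0.95 to -0.07), an interval that overlapped those of both Orm1 and Orm2. Because Orm1 holds most reads, the sum of Orm1 and Orm2 had a log2 ratio of only -0.12 (-0.15 to -0.08).

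Hp encodes haptoglobin, which binds free hemoglobin in plasma, and lies on chromosome 8 (109575128 to 109579172, minus strand). It was the 42nd gene by reads in both libraries, with 50887 reads in MHs and 117515 in SHs, or 2997 and 2774 RPM. The level in SHs was lower by 1.08-fold, for a log2 ratio of -0.11 (-0.13 to -0.10). This difference was far smaller than those of Saa1, Saa2 and Saa3. Relative to Hp, the inducible Saa1 was lower, from 0.0946 reads for each Hp read in MHs to 0.0479 in SHs, a log2 change of -0.98 (-1.04 to -0.92).

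**Figure D4:**
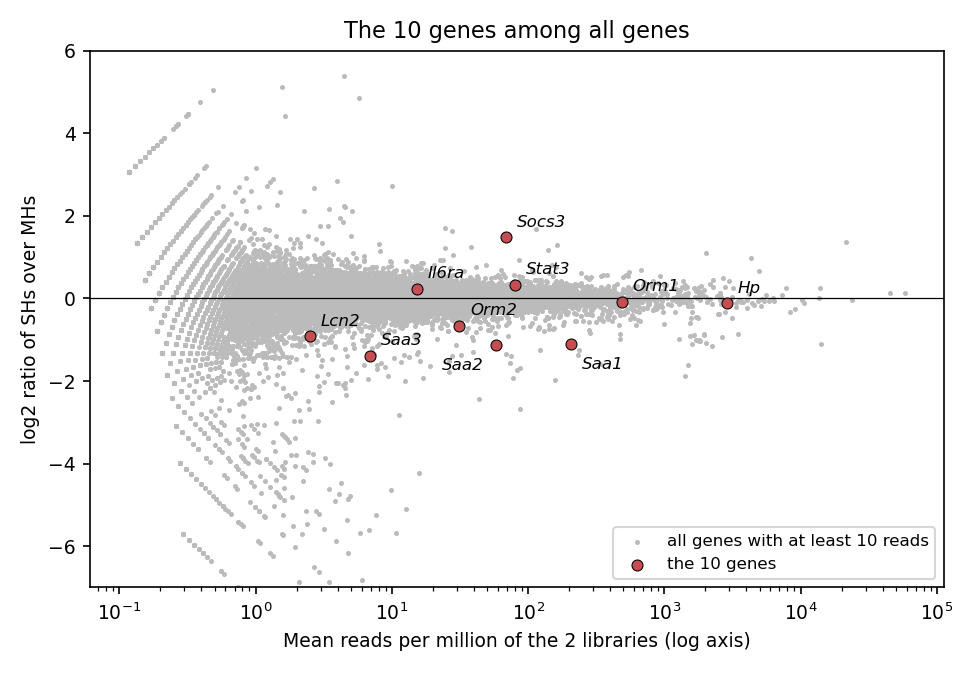
The log2 ratio of SHs over MHs against the mean level of the 2 libraries in RPM (log axis) for the 15521 genes with at least 10 reads (grey) and the 10 acute-phase and IL-6 response genes (red); 10 genes lie outside the vertical axis. Of the 9608 genes with at least 200 summed reads at any level, 42 had a lower ratio than Saa3 and 17 a higher one than Socs3. For Orm1 and Hp, 29.4% and 25.7% of these genes had a lower ratio.

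The IL-6 receptor α chain gives hepatocytes their specificity for IL-6. Il6ra (chromosome 3, 89864059 to 89913196, minus strand) had 240 reads in MHs and 705 in SHs, or 14.1 and 16.6 RPM. SHs had the slightly higher level. The log2 ratio was 0.23, and its interval, 0.02 to 0.45, nearly reached 0. Il6st, which encodes gp130, went the other way, with 94.9 RPM in MHs and 71.3 in SHs, for a log2 ratio of -0.41 (-0.50 to -0.32). The number of Il6ra reads for each Il6st read was 0.149 in MHs and 0.233 in SHs, for a log2 change of 0.65 (0.42 to 0.88). Il6 itself had 0 reads in both libraries, which allows a level of up to 0.177 RPM in MHs and 0.0708 in SHs. For the kinases that pass on the signal, the log2 ratios were -0.03 for Jak1 (-0.13 to 0.07), 0.01 for Jak2 (-0.22 to 0.26) and 0.01 for Tyk2 (-0.18 to 0.19). These intervals included 0 and bound the size of a difference by counting error.

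Stat3, the transcription factor of the pathway (chromosome 11, 100885098 to 100939540, minus strand), had 1211 reads in MHs and 3802 in SHs, or 71.3 and 89.8 RPM. The level in SHs was 1.26-fold higher (1.18 to 1.34), for a log2 ratio of 0.33 (0.24 to 0.43). Among the genes with at least 200 reads, 91.6% had a lower ratio. Stat3 overlaps Stat5a on the opposite strand by 72 bases, and Stat5a had a log2 ratio of -0.12. Il6ra overlaps an antisense gene by 281 bases that was not among the counted symbols. The other 8 genes overlap no annotated gene.

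Socs3 encodes the feedback inhibitor of the pathway and had the highest ratio of the 10 genes. It lies on chromosome 11 (117966079 to 117970047, minus strand) and has 2 exons. It had 617 reads in MHs and 4292 in SHs, or 36.3 and 101 RPM, for a log2 ratio of 1.48 (1.36 to 1.60). The level was 2.79-fold higher in SHs (2.56 to 3.04). By reads, Socs3 was the 2761st gene of all in MHs and the 1087th in SHs, and 17 of the 9608 genes with at least 200 reads had a higher ratio. Socs3 also differed from the transcription factor that induces it. The number of Socs3 reads for each Stat3 read was 0.509 in MHs and 1.13 in SHs, for a log2 change of 1.15 (0.99 to 1.30). For each Socs3 read, there were 7.80 reads of Saa1 in MHs and 1.31 in SHs, a log2 change of -2.57 (-2.71 to -2.44). The feedback inhibitor and the inducible acute-phase gene, both known STAT3 targets, thus differed in opposite directions between the libraries.

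The promoter of Socs3 is shown because it was the only one of 10 windows, those of 8 of the 10 genes with Saa4 and Orm3, with a match to the STAT letters TTCNNNGAA, in capitals.
Socs3 promoter, chr11:117969317-117969616, minus strand: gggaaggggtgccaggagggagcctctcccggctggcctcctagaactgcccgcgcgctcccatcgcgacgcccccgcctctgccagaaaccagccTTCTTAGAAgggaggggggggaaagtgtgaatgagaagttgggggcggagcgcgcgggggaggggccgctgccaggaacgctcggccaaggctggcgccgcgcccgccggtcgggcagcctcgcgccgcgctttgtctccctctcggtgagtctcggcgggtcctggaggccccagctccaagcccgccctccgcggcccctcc
The match TTCTTAGAA lies at -154 from the RefSeq start, which is 681 bases from the start of the GENCODE gene model, so that a window at the other start would differ. The same holds for the window of Lcn2, with 513 bases between the starts. Orm1 and Hp had no window in the table. TTCNNNGAA was found in 8.30% of the 32851 promoter windows of this length in the table, so that 1 match in 10 windows is close to the share of all. The stricter TTCCNGGAA was found in 1.15% and in none of the 10. A link of the match to the Socs3 level was not tested. The C/EBP letters TTGCNNAA were found in 7 of the 10, namely Saa1, Saa2, Saa3, Saa4, Lcn2, Orm2 and Orm3, and in 10.8% of all windows. Saa1 and Saa2, and likewise Orm2 and Orm3, share most of their sequence, so these matches are not independent of each other. The match was present in windows of genes with lower levels in SHs and in that of Saa4, whose level was higher. TATAAA was found in the windows of Orm2 and Orm3 and in 13.6% of all. Both strands were searched for each motif, and a match is a description of the letters, not a binding site.

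Most of the other genes of the response differed little. Of 27 other genes listed as positive acute-phase proteins, with Orm3 and the constitutive Saa4 included, 26 had at least 10 reads. Of these, 0 were at least 2-fold lower or higher with an interval on that side of 0, which is near the 4.46% and 2.00% of all genes. The median log2 ratio of the 26 was -0.12, with the interval under 0 for 19 and above 0 for 5, beside 15.5% and 16.8% of all genes. The gene with the most reads was C3, the central complement protein, with a ratio of 0.25 (0.24 to 0.26). The lowest among genes with at least 200 reads was Fgl1, a fibrinogen-like hepatokine, at -0.47 (-0.55 to -0.40), and the highest was Hamp at 0.43 (0.29 to 0.57). Hamp encodes hepcidin, the iron hormone that IL-6 induces through STAT3, and went from 31.0 RPM in MHs to 41.7 in SHs. The fibrinogen chains Fga, Fgb and Fgg lay between -0.10 and -0.07, close to Hp, and Crp, which responds weakly in mice, at -0.25 (-0.29 to -0.20). The difference of Saa1, Saa2 and Saa3 was thus larger than that of any of these 26 genes with an interval on one side of 0.

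The 10 negative acute-phase proteins, which fall in inflammation, had a median of -0.03, from -0.39 for Serpina6, the corticosteroid-binding globulin, to 0.13 for Alb, which was also among the hepatocyte markers. Of them, 5 had an interval under 0 and 3 above 0, beside 15.5% and 16.8% of all genes. Neither a common higher nor a common lower level was seen in this list.

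**Figure D5:**
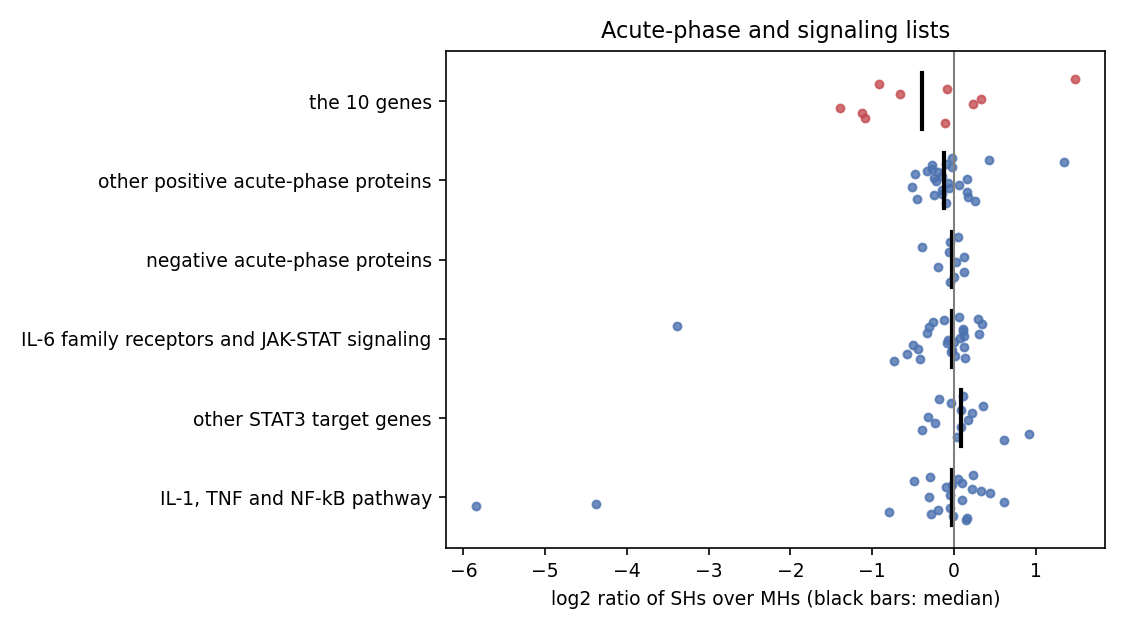
The log2 ratio of SHs over MHs of single genes (points) with at least 10 reads in the 10 genes described here (red) and in 5 further lists (blue), with the median of each list as a black bar. The medians of the 5 lists lie between -0.12 and 0.09, whereas the 10 genes are spread from -1.39 to 1.48; points far to the left rest on few reads in SHs.

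Among 33 further genes of IL-6 family receptors and JAK-STAT signaling, 26 had at least 10 reads, with a median of -0.03. The interval was under 0 for 8 and above 0 for 4, beside 15.5% and 16.8% of all genes. Lifr, the receptor of leukemia inhibitory factor and the gene with the most reads, went from 379 to 254 RPM, for a log2 ratio of -0.58 (-0.62 to -0.53). Socs2, a feedback inhibitor of growth hormone signaling and a relative of Socs3, had the lowest ratio among genes with at least 200 reads, -0.73 (-1.06 to -0.39), with 7.36 and 4.44 RPM. Socs3 and Socs2 therefore lay on opposite sides of 0. Others in this list were mixed, with Cish at 0.30 (0.14 to 0.46), Socs7 at 0.30 (0.06 to 0.55) and Socs4 at -0.44 (-0.64 to -0.23). The intervals of Socs5 and Socs6 included 0. The highest ratio among genes with at least 200 reads was that of Ptpn2, a phosphatase of JAK and STAT proteins, at 0.34 (0.02 to 0.68). The only gene at least 2-fold lower was Osmr, the oncostatin M receptor, with 10 reads in MHs against 2 in SHs and a ratio of -3.39 (-6.87 to -1.41). This 1 of 26 genes is close to the 4.46% of all genes. None was at least 2-fold higher, beside 2.00% of all genes.

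Of the 16 other STAT3 target genes, 14 had at least 10 reads. Of these, 0 were at least 2-fold higher or lower with an interval on that side of 0. This is near the 2.00% and 4.46% of all genes, and none reached the difference of Socs3. Of the 14, 4 had an interval above 0 and 2 under 0, beside 16.8% and 15.5% of all genes. For 8 the interval included 0, and the median was 0.09. The number under 0 was close to the 15.5%, with Cebpb at -0.32 (-0.40 to -0.24) and Pim3 at -0.18 (-0.24 to -0.12). Irf1, a transcription factor of interferon responses, had the highest ratio, 0.92 (0.74 to 1.12), with 16.4 RPM in MHs and 31.1 in SHs. Fos, an immediate-early gene that also responds to cell isolation, went from 193 to 295 RPM, for a log2 ratio of 0.61 (0.56 to 0.67). Cebpd, which encodes a C/EBP factor of the acute phase, had -0.39 (-0.81 to 0.04) with 73 and 139 reads. Icam1, whose protein was used to sort SHs, had 7.66 RPM in MHs and 6.52 in SHs, with an interval from -0.54 to 0.08. Fos was thus higher in the sorted library, like Socs3, but by less. In the same list, Junb had 0.22 (0.16 to 0.27) and Myc 0.09 (-0.26 to 0.45). The part of the isolation in the Socs3 level was not tested.

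Of 25 genes of the IL-1, TNF and NF-κB pathway, 23 had at least 10 reads, with a median of -0.02. The interval was above 0 for 5 and under 0 for 4, which is close to the 16.8% and 15.5% of all genes. Nfkbia, which encodes the feedback inhibitor of NF-κB, had the highest ratio among genes with at least 200 reads, 0.62 (0.44 to 0.80). Il1r1, the receptor of IL-1, had the lowest, -0.48 (-0.62 to -0.35), from 40.1 RPM in MHs to 28.7 in SHs. Il1rap, its co-receptor and the gene with the most reads, had -0.05 (-0.11 to 0.02). The 2 of 23 genes at least 2-fold lower, beside 4.46% of all genes, were Il1a and Tlr4, with 12 and 11 reads in MHs against 1 and 0 in SHs. Il1a had a ratio of -4.38 (-10.3 to -2.15). For Tlr4, a receptor of endotoxin, the interval was open below and ended at -2.65. Immune and stromal cells express Il1a, Tlr4 and Osmr too, the macrophage and stellate cell markers were also lower in SHs, and the part of such cells in these 3 differences was not tested.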

How the data were processed

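The authors deposited whole read counts per gene symbol, without normalization, 1 file per library. Per the labels and methods, libraries were made with an Ion Total RNA-Seq kit, sequenced on an Ion Proton and, for RPKM values not used here, aligned to mm10 in CLC Genomics Workbench. The submitters' processing notes name mm10 too. The program, annotation and strand setting behind the counts are not given in the sources used here, so paralogs and overlapping genes may share reads.

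Counts were scaled by library total, and intervals and shares were computed in Python 3.11.15 with scipy 1.17.1. The calculation was tested on simulated data. Gene positions, exon numbers and lengths came from GENCODE M21 (mm10), which held 39379 of the 43280 symbols once, and promoters from RefSeq. Identity came from local alignment in Biopython 1.88. With 1 library per group, no p-value was computed.

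The 10 genes and the 5 lists were chosen with earlier results of these data known. Named from each list were the gene with the most reads and the lowest and highest ratio among genes with at least 200 reads, the IL-6 receptor and JAK genes, Saa4, Orm3 and Icam1. Fga, Fgb, Fgg, Crp, Osmr, Il1a, Tlr4 and the neighbours of the Saa genes were named after their values were seen. So were Cebpb, Pim3, Junb, Myc, Cish, Socs4, Socs5, Socs6 and Socs7. As alternatives, counts were scaled with TMM (edgeR 4.0.16 in R 4.3.3), with size factors (DESeq2 1.42.0) and by totals that left out the 10 most abundant genes or the 10 genes described, and further choices were 2 added reads, other read minimums, a 1.5-fold threshold, summed paralogs and another gene length.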

Additional observations from a re-analysis of the deposited data

How the results depend on the processing

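No paired analysis was possible because each kind of cell was sequenced as 1 library. Of 131 values recomputed under an alternative, all but 7 moved by less than their interval or, for counts, by no more than 1.5 times, and 0 changed sign while called. Each of the 10 genes passes a minimum of 100 summed reads, so the other read minimums could not change their counts. For medians of lists, the median bounds of the single genes stood in for an interval, and these are not an interval of the median. TMM, DESeq2's size factors and the total without the 10 genes described moved all log2 ratios by at most 0.01, and leaving the 10 most abundant genes out of the totals by 0.03. In that case, Hp had a log2 ratio of -0.080, the share of the 10 genes was 0.512% in MHs and 0.474% in SHs, and the median of the negative acute-phase proteins was 0.0054, against -0.03 with the full totals. The median of the IL-6 family and JAK-STAT list went from -0.03 to 0.0054. That of the IL-1, TNF and NF-κB list went from -0.02 to 0.01. The sign of these medians thus depended on the scaling. At a 1.5-fold threshold, 5 genes were lower, Lcn2 and Orm2 besides the 3 Saa genes, beside 6.20% of all genes. With the union of exons as length, which was added once the data had been seen, 6 of the 10 genes kept their rank by RPKM in MHs and 5 in SHs, since annotated retained introns lengthen the Saa genes. Depth limits Lcn2, Saa3 and Il6ra most, and genes with few reads in SHs have wide intervals.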
